A study of Mus musculus with 16 samples.

Results

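The comparison asked whether the response of gene expression to interferon alpha (IFNα), a type I interferon, at 2 h differed between peritoneal macrophages and splenic CD4+ T cells of the same mouse strain. For each gene it is the difference of 2 differences: macrophages with IFNα minus macrophages with vehicle, less the same in T cells. It rests on 8 of the 16 arrays in the series, in 4 groups of 2 chosen by cell type and treatment, with no measured value used in the choice. The groups are macrophages 2 h after IFNα, macrophages with vehicle, CD4+ T cells 2 h after IFNα and CD4+ T cells with vehicle. All 8 arrays came from male B10.Q/J mice, 7 weeks old, a strain that carries a natural mutation in Tyk2, so both cell types and both vehicle groups carry it too. IFNα was given under the skin at 10000 U. Macrophages were sorted from the peritoneal cavity as cells positive for ICAM2 and for the macrophage surface protein that Adgre1 encodes, and T cells as TCRB+ CD4+ CD8- cells of the spleen. In both cell types vehicle array 1 was taken at 2 h and vehicle array 2 at 5 h. No mouse with both Tyk2 and the receptor chain Ifnar1 intact is in the series. The labels do not say whether 2 arrays of a group stand for different animals, and the p-values cover only the spread between these arrays.

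Type I interferon binds the receptor chains IFNAR1 and IFNAR2, and the kinases TYK2 and JAK1 at their inner ends then activate transcription factors, STAT2 among them. A complex that holds STAT2 and IRF9 binds interferon-stimulated response elements (ISRE) in the promoters of interferon-stimulated genes, whose products block viruses, sense foreign nucleic acids or tune the response itself. Macrophages and T cells both carry the receptor, and a large share of the induced genes is known to be common to many cell types while others depend on the cell.

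The marker genes matched the labels of both cell types, and IFNα array 1 of each cell type stood apart from the others. The mean of 15 CD4 T cell markers was 11.42 and 11.59 in the T-cell IFNα arrays and 11.59 and 11.61 in the T-cell vehicle arrays (log2 intensity), against 6.41 to 6.58 in the 4 macrophage arrays. The mean of 22 peritoneal macrophage markers was 12.01 and 12.06 in the macrophage IFNα arrays and 11.98 and 12.02 in the macrophage vehicle arrays. In T cells the same mean was 8.38 and 7.36 in the IFNα arrays, against 6.94 and 6.90 in the vehicle arrays. By these markers T-cell IFNα array 1 was the one apart. The upper quartile of intensity divided by the lower one was 6.06 in macrophage IFNα array 1 and 6.62 in T-cell IFNα array 1, against 6.97 to 7.28 in the other 6 arrays. The SD of array 1 minus array 2 over genes was 0.229 in macrophages with IFNα, against 0.15 with vehicle, and 0.302 in T cells with IFNα, against 0.151 with vehicle (log2). In bulk RNA, fewer cells of a type and less RNA per cell cannot be told apart. For T-cell vehicle array 1 the title starts with another cell type's code, and the group was taken from the label that names the cell family. The titles of macrophage IFNα array 2 and of both macrophage vehicle arrays carry the code of the spleen. That of macrophage IFNα array 1 carries the code of the peritoneal cavity. The peritoneal origin was taken from the label that names the source.

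The promoters of 4 genes show the sequence features of the genes the results turn on, from RefSeq on GRCm38.p6, each from 250 bases before to 50 after the start of the gene. Capitals mark matches to the core of an ISRE on either strand, which was searched as GAAA, any 2 bases and GAAA again. Ifit1 stands for the genes that rose in both cell types, Ifi205 for a gene with a large rise in macrophages, and Trex1 and Dck for genes whose responses differed between the cell types.

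Ifit1 promoter, chr19:34640639-34640938 (+ strand): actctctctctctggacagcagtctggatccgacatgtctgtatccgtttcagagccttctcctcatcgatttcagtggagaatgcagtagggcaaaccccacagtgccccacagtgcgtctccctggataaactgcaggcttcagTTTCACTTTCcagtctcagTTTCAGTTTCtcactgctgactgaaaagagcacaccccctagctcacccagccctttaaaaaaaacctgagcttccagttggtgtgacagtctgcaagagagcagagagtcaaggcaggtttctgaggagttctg
Ifi205 promoter, chr1:174031706-174032005 (- strand): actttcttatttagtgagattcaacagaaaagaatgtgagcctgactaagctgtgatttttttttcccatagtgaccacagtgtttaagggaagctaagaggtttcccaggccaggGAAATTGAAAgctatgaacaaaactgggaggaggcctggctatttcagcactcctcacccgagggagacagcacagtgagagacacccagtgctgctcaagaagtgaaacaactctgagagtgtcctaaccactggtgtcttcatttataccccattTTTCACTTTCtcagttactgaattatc
Trex1 promoter, chr9:109059674-109059973 (- strand): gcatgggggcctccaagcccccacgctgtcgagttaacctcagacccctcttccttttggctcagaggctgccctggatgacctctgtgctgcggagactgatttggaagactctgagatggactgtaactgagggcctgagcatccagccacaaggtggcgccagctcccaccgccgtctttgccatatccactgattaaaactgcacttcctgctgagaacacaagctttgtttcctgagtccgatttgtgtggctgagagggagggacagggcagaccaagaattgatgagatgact
Dck promoter, chr5:88764763-88765062 (+ strand): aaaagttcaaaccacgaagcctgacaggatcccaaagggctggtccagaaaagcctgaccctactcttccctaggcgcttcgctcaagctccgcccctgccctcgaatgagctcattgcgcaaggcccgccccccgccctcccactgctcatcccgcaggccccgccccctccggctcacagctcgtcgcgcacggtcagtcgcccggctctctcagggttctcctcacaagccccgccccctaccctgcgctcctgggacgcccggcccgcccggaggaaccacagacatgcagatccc

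Ifit1 and Ifi205 each had 2 matches in this window, and Trex1 and Dck had 0. These 4 genes are picked examples. Of the genes risen in both cell types 14 of 30 with a promoter held a match, and Cmpk2 and Xaf1 held 0. Ifi205 had a large difference of responses too (3.87, not called). Mx1, whose responses differed as well, had no promoter in the set used, so it is not among the examples. Trex1 has 2 promoters in the set, of which 1 is printed, and the other held 0 matches too. Of all 32851 promoters in the table, 3.44% held at least 1 match.

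**Figure D1:**
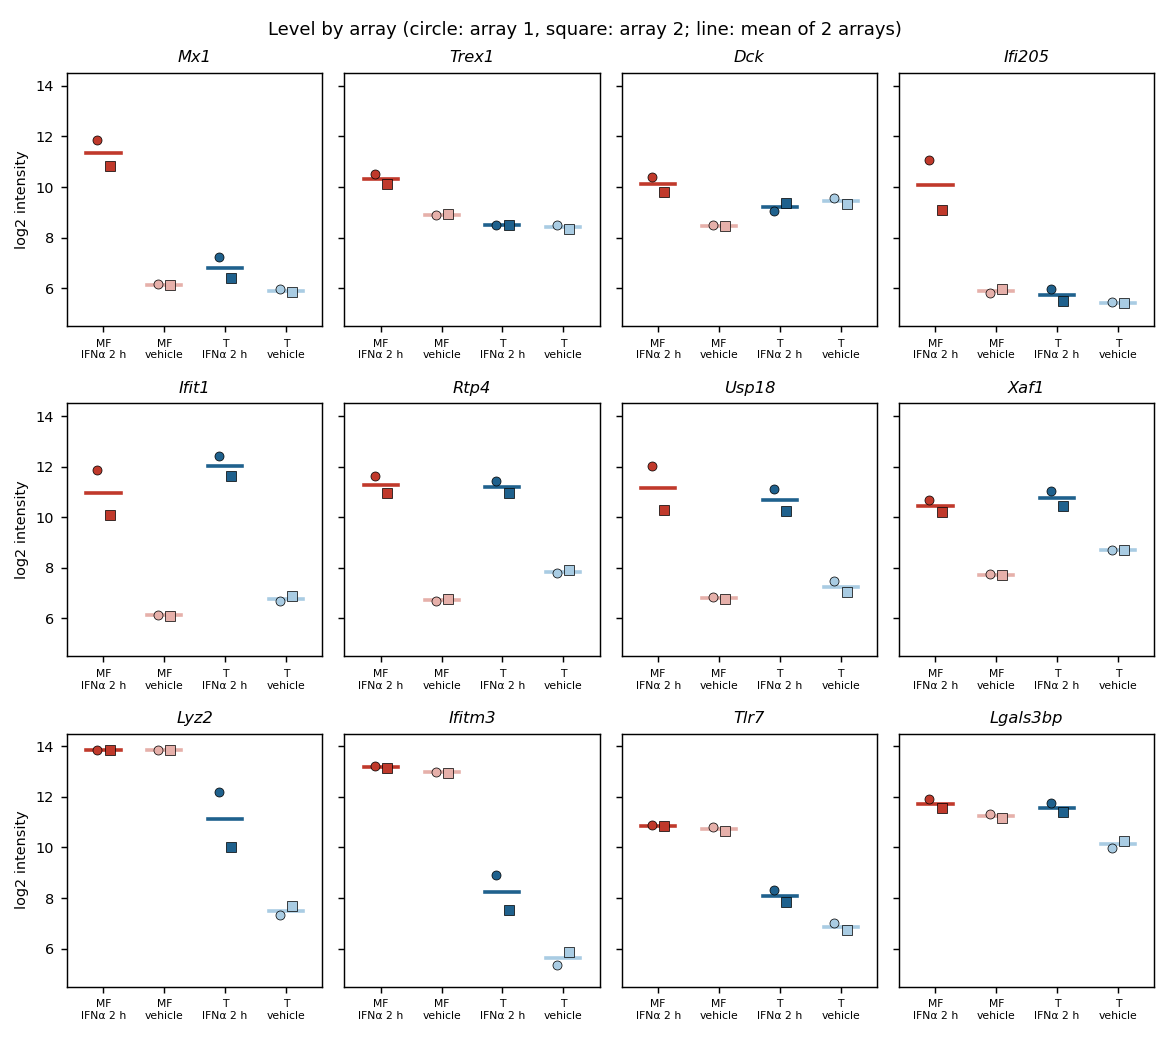
Log2 intensity of 12 genes in each of the 8 arrays, with circles for array 1, squares for array 2 and a line for the mean of the 2 arrays of a group. Mx1, Trex1, Dck and Ifi205 are higher with IFNα than with vehicle in macrophages and closer to the vehicle level in T cells. Ifit1, Rtp4, Usp18 and Xaf1 are higher with IFNα in both cell types. Lyz2, Ifitm3, Tlr7 and Lgals3bp are higher with IFNα than with vehicle in T cells. In macrophages Ifitm3, Tlr7 and Lgals3bp are slightly higher with IFNα as well, and none of them was called there. The level of Lyz2, Ifitm3 and Tlr7 is higher in every macrophage array than in any T-cell array.

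Mx1, Dck and Trex1 responded more strongly in macrophages than in T cells, and these 3 genes were the full set of calls. They are 0.0268% of the 11187 genes tested, and 0 genes (0%) were called in the other direction. The threshold was an adjusted p of 0.05 in a linear model fitted with limma to the 12 B10.Q arrays. At an unadjusted p under 0.05, 817 genes differed, 283 with a larger and 534 with a smaller response in macrophages. The median half-width of the 95% interval of a difference was 0.35 on the log2 scale (1.27-fold). The median difference over all genes tested was -0.03, with 44% of genes above 0.

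Mx1, a dynamin-like GTPase that blocks influenza viruses and is defective in many laboratory strains, read 11.87 and 10.84 in macrophages with IFNα, against 6.15 and 6.12 with vehicle. The T-cell arrays read 7.23 and 6.41 with IFNα, against 5.96 and 5.84 with vehicle. The IFNα and vehicle arrays did not overlap in either cell type, and the gap was wide in macrophages and narrow in T cells. The macrophage response was 5.22 ± 0.30 (SE, n = 2; 37.2-fold, adjusted p = 2.35e-06), and the T-cell value was 0.92 ± 0.30, not called (adjusted p = 0.422). The difference of the responses was 4.30 ± 0.42, a ratio of 19.7 between the fold changes (95% interval 3.39 to 5.21 log2, adjusted p = 0.003). All 4 vehicle values of Mx1 were under the lower quartile of the array they came from, where intensities carry little information on size. With such values raised to the quartile the difference was 4.56.

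Dck, deoxycytidine kinase, starts the salvage of deoxynucleosides into DNA precursors. It read 10.41 and 9.80 in macrophages with IFNα, against 8.50 and 8.45 with vehicle. T cells held 9.04 and 9.36 with IFNα, against 9.58 and 9.32 with vehicle, so these T-cell values overlapped while the macrophage values did not. The macrophage response was 1.62 ± 0.17 (3.08-fold, adjusted p = 3.04e-04), the T-cell value was -0.25 ± 0.17 (adjusted p = 0.717), and the difference was 1.88 ± 0.24 (3.67-fold, 95% interval 1.34 to 2.41, adjusted p = 0.0222). Without IFNα, T cells had the higher level of this probe set.

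Trex1, an exonuclease that degrades DNA in the cytosol, read 10.50 and 10.13 in macrophages with IFNα, against 8.88 and 8.94 with vehicle. In T cells the values were 8.48 and 8.50 with IFNα, against 8.52 and 8.34 with vehicle. The macrophage arrays were apart and the T-cell arrays overlapped. The difference of the responses was 1.34 ± 0.17 (2.53-fold, 95% interval 0.98 to 1.71, adjusted p = 0.022), from 1.40 in macrophages (adjusted p = 7.34e-05) and 0.06 in T cells (adjusted p = 0.919).

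The count rested on single arrays, and a group left with 1 array was given the spread of the others. Without either vehicle array of either cell type 1 gene was called, Mx1, with adjusted p from 0.0264 to 0.0351. It was 7 without macrophage IFNα array 1, 90 without macrophage IFNα array 2, 18 without T-cell IFNα array 1 and 511 without T-cell IFNα array 2, and all 3 genes were kept in these 4 fits. The absence of calls with the smaller response in macrophages rested on single arrays too: 6 of the 18, 22 of the 90 and 246 of the 511 were on that side, and 0 of the 7. With the 2 h vehicle arrays alone 0 genes were called, and Mx1 was at 4.35 with an adjusted p of 0.162.

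**Figure D2:**
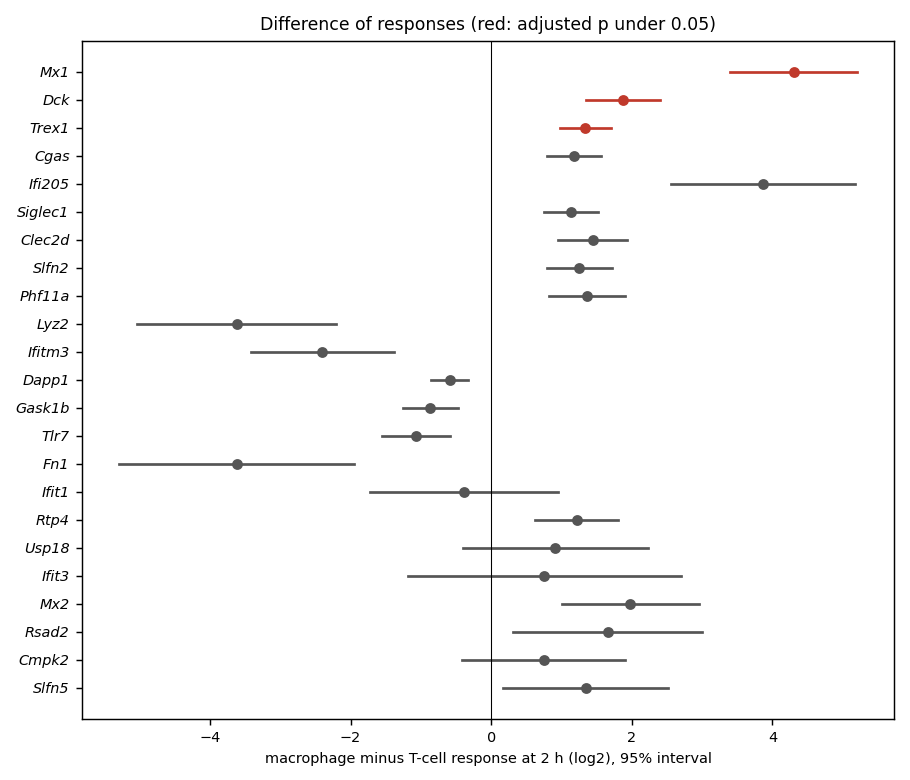
Difference of responses, macrophages minus T cells, in log2 units, with 95% intervals from the model. The 3 called genes are in red, and the intervals of Ifit1, Usp18, Ifit3 and Cmpk2 include 0.

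At 5 h, in other IFNα arrays but against the same vehicle arrays, the differences of these 3 genes were 4.31 for Mx1, 1.82 for Dck and 1.25 for Trex1. Mx1 read 10.47 and 10.80 in macrophages with IFNα at 5 h, against 5.98 and 6.20 in T cells with IFNα at 5 h. In the 4 arrays of macrophages without Ifnar1, from 6-week-old mice of another strain and including the arrays with IFNα, Dck lay between 8.40 and 8.65 and Trex1 between 8.61 and 8.93. Both ranges are near the vehicle level of B10.Q macrophages.

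The 6 genes with the next smallest p on the same side were not called. Cgas makes the messenger that follows DNA detection in the cytosol, and its difference was 1.18 ± 0.18 (95% interval 0.80 to 1.56, adjusted p = 0.0559). It read 8.12 and 8.03 in macrophages with IFNα, against 6.78 and 6.70 with vehicle, and 6.49 and 6.77 in T cells with IFNα, against 6.50 and 6.46 with vehicle. The macrophage values were apart, and those of T cells overlapped. Ifi205, a PYHIN protein of the family that binds DNA, read 11.05 and 9.08 in macrophages with IFNα, against 5.82 and 5.98 with vehicle. In T cells it read 5.95 and 5.51 with IFNα, against 5.46 and 5.41 with vehicle, all under the lower quartile of the arrays. Its difference of 3.87 ± 0.60 had an interval from 2.56 to 5.17 and an adjusted p of 0.0559, and the macrophage arrays with IFNα were themselves far apart.

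Siglec1, a sialic acid receptor of macrophages (CD169), read 9.15 and 8.87 in macrophages with IFNα, against 7.66 and 7.96 with vehicle, and its difference was 1.14 ± 0.18 (adjusted p = 0.0559). Clec2d, a ligand of an inhibitory receptor on NK cells, was at 1.45 ± 0.23 (adjusted p = 0.0559). It read 11.56 and 11.26 in macrophages with IFNα, against 10.27 and 9.89 with vehicle, while T cells held 11.65 and 12.09 with IFNα, against 12.05 and 11.92 with vehicle. For Clec2d every T-cell array was thus above every macrophage array. Slfn2, a Schlafen protein known for keeping T cells quiescent, was at 1.25 ± 0.21 (adjusted p = 0.103) and Phf11a at 1.36 ± 0.25 (adjusted p = 0.148).

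Over the genes called as risen, 127 (1.14% of genes tested) rose in macrophages and 58 (0.518%) in T cells. The 41 genes that rose in both are 32.3% of the macrophage genes and 70.7% of the T-cell genes. A further 86 were called in macrophages and not in T cells, and 17 in T cells and not in macrophages, but only 3 of all these genes were called for the difference. A call in 1 cell type and not in the other is therefore no measure of a difference here. These counts moved with single arrays. In both directions together macrophages had 133 calls, against 69 without IFNα array 1, 357 without IFNα array 2, 82 without vehicle array 1 and 72 without vehicle array 2. T cells had 60 calls, against 32 without IFNα array 1, 1280 without IFNα array 2, 20 without vehicle array 1 and 16 without vehicle array 2. Over all genes the responses correlated at r = 0.454, across genes, which are not independent and share the model. The mean of the 2 responses gives neither cell type more weight in the choice of genes, and it was added after seeing the data. By that mean 135 genes (1.21%) rose and 1 (0.00894%) fell. Of these, 103 (76.3%) had the larger value in macrophages and 32 in T cells, with a median response of 1.32 in macrophages and 0.84 in T cells and a median difference of 0.39. This share comes from the main fit and was not recomputed without single arrays, with which the count of genes by the mean moved as well.

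**Figure D3:**
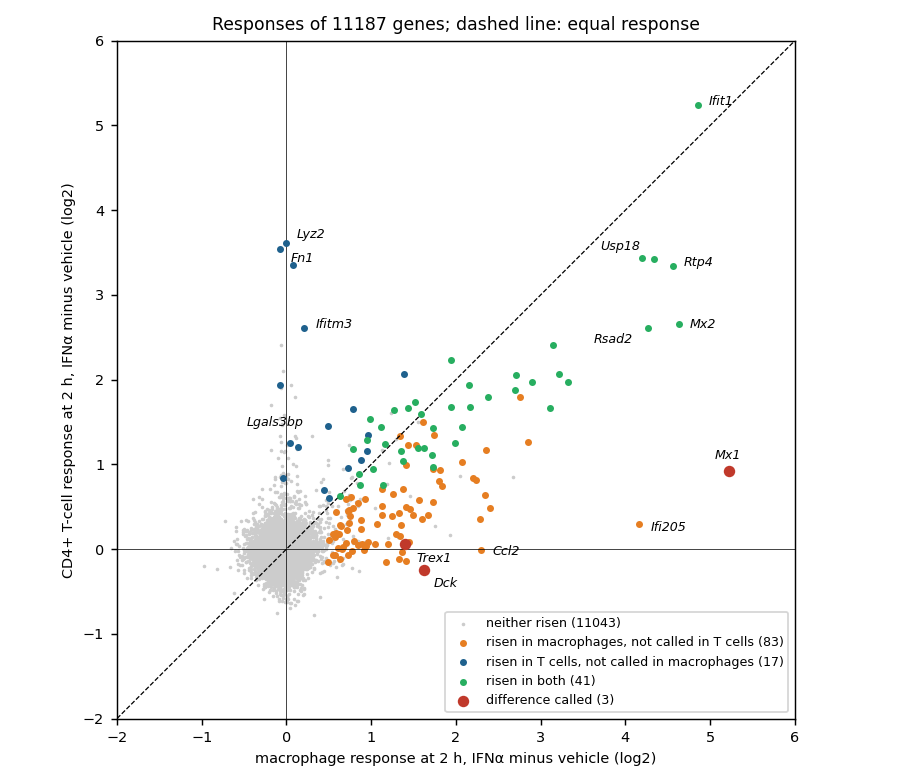
Response to IFNα at 2 h of the 11187 genes tested, in macrophages (x axis, log2) and in T cells (y axis, log2), with the line of equal response dashed. Mx1 and Ifi205 lie far to the right and well under the line, at 0.92 and 0.30 on the y axis. Ifit1 and Usp18 lie near the line, and Lyz2, Fn1 and Ifitm3 lie near 0 on the x axis.

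Genes that rose strongly in both cell types, with no call for the difference, include several of the best known antiviral proteins. Ifit1, which binds foreign RNA caps, read 11.87 and 10.09 in macrophages with IFNα, against 6.13 and 6.11 with vehicle. The T-cell arrays read 12.41 and 11.62 with IFNα, against 6.67 and 6.87 with vehicle. Both cell types were far above vehicle, and the difference of -0.39 ± 0.61 had an interval from -1.72 to 0.95. Rtp4, a chaperone of receptors at the cell surface that IFNα induces, read 11.63 and 10.96 in macrophages with IFNα, against 6.68 and 6.79 with vehicle. T cells held 11.43 and 10.95 with IFNα, against 7.78 and 7.91 with vehicle. The levels with IFNα overlapped between the cell types and those with vehicle did not, and the difference was 1.22 ± 0.27 (95% interval 0.63 to 1.80, adjusted p = 0.305).

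Usp18, which removes ISG15 from proteins and damps receptor signalling, read 12.03 and 10.28 in macrophages with IFNα, against 6.84 and 6.78 with vehicle. In T cells the values were 11.12 and 10.24 with IFNα, against 7.47 and 7.04 with vehicle. Its difference was 0.91 ± 0.61, with an interval from -0.41 to 2.23. The 2 IFNα arrays were far apart in each cell type. Ifit3, a partner of Ifit1, was at 0.75 (-1.19 to 2.69) and Cmpk2, a mitochondrial nucleotide kinase, at 0.74 (-0.42 to 1.91). For Mx2, a relative of Mx1, the difference was 1.98 ± 0.45, for Rsad2 (viperin), whose product ends viral RNA chains, 1.66 ± 0.62, and for Slfn5 1.34 ± 0.54. The 95% intervals of these 3 lie above 0, but none passed the adjusted threshold, with adjusted p of 0.336, 0.646 and 0.666. For Mx2 and Rsad2 the vehicle values of both cell types were under the lower quartile of their arrays.

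Within the IFNα groups the array numbered 1 was the higher one throughout these genes. Of the 41 genes that rose in both cell types, array 1 was above array 2 in 41 in macrophages with IFNα (median 0.60) and in 41 in T cells with IFNα (median 0.59). In the vehicle groups the counts were 23 in macrophages and 25 in T cells. Over all genes tested array 1 was the higher in 32.8% in macrophages with IFNα and in 46% in T cells with IFNα. The part of this in the results was not tested. Without both arrays numbered 1 of IFNα, 26 genes were called for the difference, 20 higher and 6 lower, with Mx1 at 4.20, Dck at 1.41 and Trex1 at 1.15.

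By role, antiviral effectors were called in macrophages for 19 of 31 members tested and in T cells for 16, with 1 call for the difference (Mx1). Over all genes tested 1.14% were called as risen in macrophages and 0.518% in T cells, and these shares are the background of every list below. At an unadjusted p under 0.05 the difference was above 0 for 10 members and below 0 for 3, against 283 and 534 of all 11187 genes. The list's median was 1.46 in macrophages and 1.17 in T cells, and the median difference was 0.38, against -0.03 over all genes tested. Oas1a, a synthetase that activates RNase L, was called in macrophages (1.72) and not in T cells (0.56), and its difference of 1.16 was not called. Oasl2 rose by 3.21 in macrophages and by 2.07 in T cells, Oas2 by 2.90 and 1.98, and Eif2ak2 (PKR, which halts translation) by 2.15 and 1.94. Ifi27l2a rose by 0.98 in macrophages and by 1.53 in T cells. Isg20, an exonuclease that attacks viral RNA, was called in T cells (1.65) and not in macrophages (0.79).

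Among 20 sensors of nucleic acids and their adaptors, 11 rose in macrophages and 3 in T cells, with 1 call for the difference (Trex1). The medians were 1.36 in macrophages and 0.47 in T cells, with a median difference of 0.22. At an unadjusted p under 0.05 the difference was above 0 for 8 members and below 0 for 2. The RNA sensors Ifih1 (MDA5) and Dhx58 (LGP2) rose in both, by 1.44 and 1.51 in macrophages and by 1.66 and 1.74 in T cells. The PYHIN genes Ifi209 and Ifi208 rose by 2.35 and 2.85 in macrophages and were at 0.64 and 1.26, not called, in T cells. Ifi208 was nevertheless much lower in macrophages with IFNα (8.51 and 6.94) than in T cells with vehicle (10.66 and 10.44). Its macrophage vehicle values, 4.67 and 5.07, were under the lower quartile of their arrays, which limits the size of its macrophage response. Ifi209 read 11.89 and 10.67 in macrophages with IFNα and 11.38 and 11.35 in T cells with vehicle, so a large macrophage response brought this gene to a level that T cells already held.

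The PARP, TRIM and Schlafen families were called for 16 of 27 members in macrophages and 14 in T cells, with medians of 1.02 and 0.96 and 0 calls for the difference, where 9 members were above and 1 below 0 at an unadjusted p under 0.05. Pml, which builds nuclear bodies, rose by 0.95 in macrophages and 1.29 in T cells, and Trim25, a ubiquitin ligase that activates RIG-I, by 1.11 and 1.44. Slfn9 rose by 2.28 in macrophages and was at 0.35 in T cells, with a difference of 1.93 ± 0.41 (adjusted p = 0.298).

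Of 16 genes for the receptor, its kinases, the STATs and the IRFs, 4 rose in macrophages and 2 in T cells, with 0 calls for the difference and 4 above 0 at an unadjusted p under 0.05. Irf7, which amplifies interferon production, rose by 2.70 in macrophages and 1.87 in T cells, and Irf9 by 1.62 and 1.20. Stat2 (2.07) and Irf1 (1.41) were called in macrophages, and in T cells they were at 1.03 and 0.49. The receptor chains and Tyk2 showed no call in either cell type. Ifnar1 read 10.14 and 10.28 in macrophages with IFNα, against 10.26 and 10.46 with vehicle, and 10.43 and 10.51 in T cells with IFNα, against 10.56 and 10.54 with vehicle. Ifnar2 read 11.95 and 11.91 in macrophages with IFNα and 10.36 and 10.55 in T cells with IFNα. For this chain every macrophage array, vehicle included (lowest 11.90), was above every T-cell array (highest 10.55). The difference of responses was -0.06 ± 0.15 for Ifnar1 (95% interval -0.38 to 0.26), -0.04 ± 0.14 for Ifnar2 (-0.34 to 0.25) and 0.12 ± 0.20 for Tyk2 (-0.31 to 0.55).

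Of 14 negative feedback genes Usp18 was the 1 called, in both cell types. Among 5 genes of ISG15 conjugation 3 rose in macrophages (Usp18, Trim25 and Herc6) and 2 in T cells (Usp18 and Trim25). Among 11 GTPases of the GBP and IRG families, which act on vacuoles that hold pathogens, Gbp5, Irgm1 and Gm12250 rose in macrophages, and Irgm1 and Gm12250 rose in T cells. Gm12250 was at 3.11 in macrophages and 1.67 in T cells (difference 1.44, 95% interval 0.52 to 2.36). The 3 members of the Phf11 family tested, nuclear proteins with a PHD finger, rose in macrophages, and Phf11c rose in T cells as well, by 1.58 in macrophages and 1.59 in T cells. None of these 4 lists had a call for the difference, and at an unadjusted p under 0.05 they held 0, 0, 1 and 2 members, all above 0.

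Chemokines and cytokines were called in macrophages for 3 of 18 members and in T cells for 0, with a median difference of 0.44 and 0 calls for it (7 above 0 at an unadjusted p under 0.05). Ccl2, which recruits monocytes, read 10.67 and 9.03 in macrophages with IFNα, against 7.50 and 7.60 with vehicle. In T cells it read 7.14 and 6.85 with IFNα, against 7.03 and 6.98 with vehicle. Macrophage arrays were apart and T-cell arrays overlapped, and the difference was 2.31 ± 0.51 (95% interval 1.21 to 3.41, adjusted p = 0.3). Il15, a growth factor for NK and memory T cells, was at 1.55 ± 0.30 (adjusted p = 0.196) and Il6 at 1.33 ± 0.35 (adjusted p = 0.448).

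MHC class I presentation had 2 of 18 genes called in macrophages, Tap1 (1.35) and H2-T24 (1.94), and 1 in T cells, H2-T24 (1.68). MHC class II had 0 of 7 in either cell type. Among 25 genes of macrophage activation Siglec1, Fcgr1, Ms4a6c, Arg1 and Lgals9 rose in macrophages. Fcgr1, a high-affinity receptor for IgG, read 10.05 and 9.42 in macrophages with IFNα, against 8.61 and 8.13 with vehicle, and its difference was 1.40 ± 0.30 (adjusted p = 0.298). Of 26 genes of T-cell activation and homing 0 rose in T cells, and Ms4a6b, a membrane protein of T cells, rose in macrophages by 1.29. It read 6.88 and 6.26 in macrophages with IFNα, against 5.14 and 5.42 with vehicle, and 12.38 to 12.74 in the 4 T-cell arrays. Of these macrophage values only the 6.88 was above the lower quartile of its array. Of 15 cell death genes Xaf1 rose in both cell types, by 2.71 in macrophages and 2.05 in T cells, and Mlkl and Daxx were called in macrophages. None of these 5 lists held a call for the difference, nor did the lists of clock genes (14 tested), immediate early genes (20) and glucocorticoid and metallothionein genes (11), where limma called 0 members in either cell type. At an unadjusted p under 0.05 the difference was above 0 for 2 and below 0 for 1 of the class I genes. The counts were 5 and 6 for the macrophage activation genes, 6 and 2 for the T-cell genes and 2 and 1 for the cell death genes. They were 1 and 1 for the clock genes, 2 and 0 for the immediate early genes, and 0 for the class II and glucocorticoid genes. Over all 11187 genes tested 283 were above and 534 below. The few members of the clock and immediate early lists are therefore no result about those lists.

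**Figure D4:**
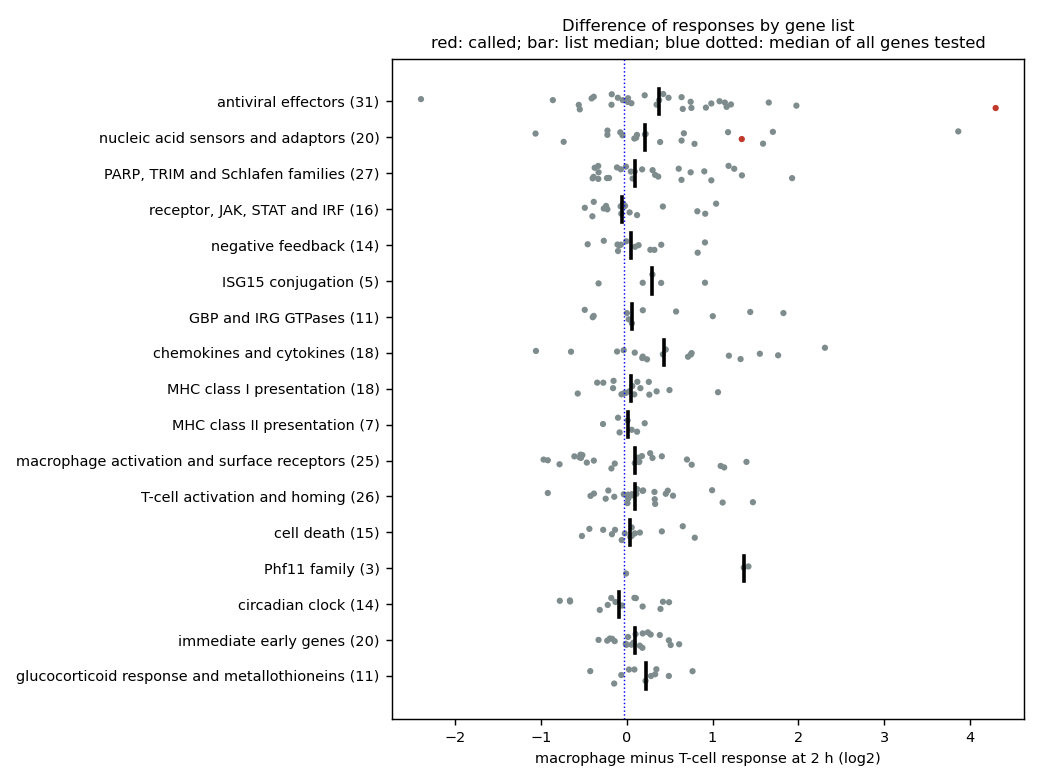
Difference of responses, macrophages minus T cells (log2), for each tested member of 17 gene lists, with a bar for the list median, a dotted line for the median of all genes tested (-0.03) and called genes in red. Mx1 and Trex1 are the called members, and the Phf11 family, with 3 members, has the highest median.

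On the other side, the smallest adjusted p among genes with the larger response in T cells was 0.148, for Lyz2. In 5 of the 6 genes with the smallest p on this side T-cell IFNα array 1 was above array 2. Lyz2, lysozyme of macrophages and neutrophils, read 13.85 and 13.86 in macrophages with IFNα, against 13.86 and 13.87 with vehicle. The T-cell arrays read 12.20 and 10.02 with IFNα, against 7.34 and 7.67 with vehicle, which gave a difference of -3.62 ± 0.65. Fn1 (fibronectin), also a major transcript of these macrophages, was at -3.62 ± 0.77 (adjusted p = 0.298). It read 13.85 and 13.95 in macrophages with IFNα, against 13.96 and 14.00 with vehicle, and 11.93 and 9.43 in T cells with IFNα, against 6.82 and 7.46 with vehicle. Neither gene was called in macrophages, and in both T-cell IFNα array 1 was above array 2 and both were above vehicle, as in the mean of the macrophage markers. These values moved with that array. Without it Lyz2 was at -2.53, Fn1 at -2.37, Wfdc17 at -1.96, Ifitm3 at -1.70 and Lyz1 at -1.20. That fit leaves 1 array in the T-cell IFNα group, so it holds no measure of the spread there.

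Of the 22 macrophage markers tested, 18 had a difference below 0 and 4 above, with a median of -0.52, and Lyz2 and Lyz1 were called as risen in T cells. Adgre1, whose product was used in the macrophage sort, read 8.63 and 6.82 in T cells with IFNα, against 6.65 and 5.88 with vehicle, while Gata6, the factor of peritoneal macrophages, read 7.21 and 6.62, against 6.70 and 6.74. The rise in T cells was also set against the macrophage level on the linear scale. Over all 22 markers it came to a median of 2.72% (0.119% to 30.5%) in array 1 and 0.387% (-1.33% to 5.78%) in array 2, with Lyz2 the highest in both. Over the 15 markers that in T cells with vehicle were below the array median and at least 8-fold under the macrophage level, which leaves out Lyz2, it was 2.71% (1.09% to 9.96%) and 0.375% (-0.249% to 1.32%). Across the 4 T-cell arrays the mean of the B cell markers ran from 6.66 to 6.79, that of the CD8 T and NK cell markers from 6.44 to 6.69 and that of the neutrophil markers from 6.01 to 6.18. The mean of 4 erythroid and platelet markers was 7.06 and 6.48 with IFNα, against 6.40 and 6.56 with vehicle. The part of these markers in the T-cell responses was not tested beyond the subtraction given next.

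**Figure D5:**
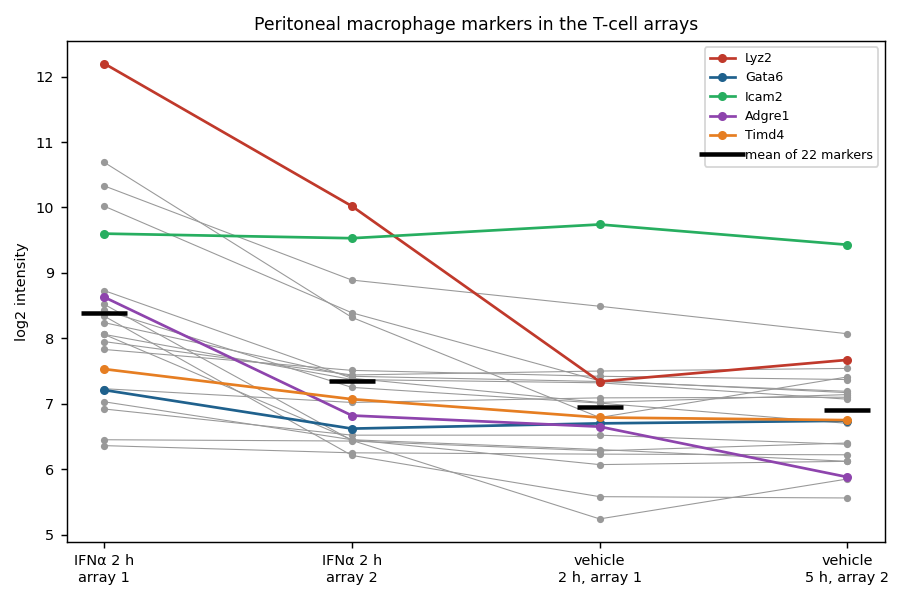
Log2 intensity of 22 peritoneal macrophage markers in the 4 T-cell arrays, with lines that join the values of a gene and black bars for the mean over the markers. The mean is 8.38 in IFNα array 1, 7.36 in IFNα array 2, 6.94 in vehicle array 1 and 6.90 in vehicle array 2.

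The same percentage varied widely among the genes named above. For Mx1 the rise in T cells was 3.23% of the macrophage level in array 1 and 0.898% in array 2, and for Ifi205 it was 1.40% and 0.186%. Ifit1 reached 221% and 126%, Rtp4 98.2% and 68%, and Usp18 76.6% and 39.1%. What these percentages owe to macrophage RNA in the T-cell arrays was not tested. In an alternative chosen after seeing the data, the median share of the 15 markers was subtracted from the T-cell IFNα arrays. Then 7 genes were called for the difference, the 3 genes among them, with Mx1 at 4.88 (adjusted p = 8.76e-05), Ifi205 at 4.53 and Cgas at 1.23. The subtraction did not remove the most abundant macrophage transcripts: Lyz2 was at -3.54, against -3.62 before it, Fn1 at -3.50, against -3.62, and Wfdc17 at -3.10, against -3.28. Lyz2 was still called as risen in T cells, by 3.53 (adjusted p = 0.00345). The share taken off in array 1 was 2.71%, against a Lyz2 rise of 30.5% of the macrophage level. What the rest of that rise owes to macrophage RNA was not tested.

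The other genes called as risen in T cells and not in macrophages differed in this percentage. Retnla, a secreted protein of alternatively activated macrophages, named after its values were seen, read 11.77 and 11.91 in macrophages with IFNα, against 11.69 and 11.91 with vehicle. In T cells the values were 6.39 and 5.68 with IFNα, against 4.44 and 5.11 with vehicle, a response of 1.26 (adjusted p = 0.0338). All of these T-cell values but the 6.39 were under the lower quartile of their arrays, where intensities carry little information on size. The rise of Retnla in T cells was 1.51% and 0.63% of the macrophage level, and with the share subtracted the response was 0.23 (adjusted p = 0.765). Ifitm3, which blocks the entry of viruses, read 13.21 and 13.15 in macrophages with IFNα, against 13.00 and 12.94 with vehicle. T cells held 8.92 and 7.53 with IFNα, against 5.34 and 5.88 with vehicle, a response of 2.61 (adjusted p = 0.00315) from a level far below that of macrophages. Its rise in T cells was 4.68% and 1.45% of the macrophage level. At 5 h, where the marker mean was 6.91 and 6.94, Ifitm3 read 7.07 and 7.49 in T cells. Its difference at 2 h was -2.40 ± 0.47 (adjusted p = 0.208), and -1.74 with the macrophage share subtracted (adjusted p = 0.0703). Both T-cell vehicle values of Ifitm3 were under the lower quartile of their arrays. With such values raised to the quartile the difference was -1.69.

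Lgals3bp, a secreted glycoprotein that binds galectins, read 11.90 and 11.56 in macrophages with IFNα, against 11.34 and 11.16 with vehicle. In T cells the values were 11.75 and 11.40 with IFNα, against 9.99 and 10.25 with vehicle. Its T-cell rise was 67.8% and 46.5% of the macrophage level, and its difference of -0.97 ± 0.21 was not called (adjusted p = 0.298). Tlr7, an endosomal sensor of single-stranded RNA, rose in T cells by 1.20, with 8.30 and 7.84 with IFNα against 7.01 and 6.72 with vehicle, and its difference was -1.06 ± 0.22 (adjusted p = 0.298). Its T-cell rise was 10.7% and 5.98% of the macrophage level. Slc15a2, a peptide transporter, rose in T cells by 2.07 and was at 1.39, not called, in macrophages.

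Few genes fell. In macrophages 6 genes (0.0536%) fell: Gask1b, Mgst2, Dagla, Cnr2, Uspl1 and Tubb2a, by 0.43 to 0.67 on the log2 scale. In T cells 2 genes (0.0179%) fell: Hs3st3b1, which modifies heparan sulfate, by 0.63, and Ubxn11, by 0.53. They were named after their values were seen, except Gask1b, and 0 genes fell in both. Gask1b was at -0.60 in macrophages and 0.27 in T cells, with a difference of -0.86 ± 0.18 (adjusted p = 0.298).

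ISRE core matches were frequent in the promoters of the genes that rose. Of the genes risen in both cell types, 14 of 30 with a promoter in the table held one (46.7%), as did 17 of 73 risen in macrophages and not called in T cells (23.3%) and 4 of 15 risen in T cells and not called in macrophages (26.7%), against 3.73% of 9002 genes tested. These are descriptions, with no test. Matches to a composite ETS and IRF motif (GGAA, any 2 bases and GAAA) were found in 16.7%, 13.7% and 6.67% of the same 3 groups of genes, against 2.92%, and to TTCNNNGAA, which STAT dimers bind, in 13.3%, 9.59% and 26.7%, against 8.11%. Both strands were searched, and a promoter may hold more than 1 of these motifs. The windows of Trex1 and Dck held none of the 3 motifs, which says only that these letters are not there.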

How the data were processed

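Total RNA of sorted cells was hybridised to Affymetrix Mouse Gene 1.0 ST arrays. The authors deposited a linear intensity per probe set, summarised with RMA in Affymetrix Power Tools per the submitters' processing notes (versions, and joint or separate normalization, are not given in the sources used here). These intensities were taken to log2 and not scaled again. Array medians lay between 173.57 and 193.7 intensity units. Precision is limited by the number of arrays.

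Of 24922 probe sets 21425 named 1 gene, 1399 several and 2098 none, and entrez identifiers of 21347 matched RefSeq with 0 symbols changed. A gene with several probe sets (921 of 19752) kept the one with the highest mean. Genes with no probe set of their own, Isg15 among them, are not analysed here. Testing required 2 or more of the 12 B10.Q arrays above their own median.

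All tests were two-sided and came from lmFit and eBayes of limma 3.58.1 under R 4.3.3 (6 groups, 6 residual degrees of freedom), with Benjamini-Hochberg adjustment over all genes tested. Errors are SE from the fit. The named genes were called genes, the 6 with the smallest p in each direction, up to 8 risen in both, up to 4 of each list with the largest difference, and Ifnar1, Ifnar2 and Tyk2; other list members illustrate their list. The members, lists and tests were chosen with earlier results of these data known. On simulated data for the difference (11187 genes) a 1.5-fold difference was recovered in 31.3% of cases, a 2-fold one in 91.4% and a 4-fold one in 99.4%. Of the simulated calls 5.36% were false. Each draw changed 200 genes picked at random, with noise independent between arrays and no shift shared by genes of 1 array. The adjusted threshold depends on how many genes change, and 200 per draw is far more than the 3 called here. The percentages therefore do not carry over to these data, least of all to genes with a wide spread. Ccl2 at 2.31 and Ifi205 at 3.87 were not called. Nor were Cgas at 1.18 ± 0.18 and Siglec1 at 1.14 ± 0.18, where the median SE of a difference was 0.16. Alternatives were other filters, scalings, a floor, variance models, sets of arrays, replicate blocks, and leaving out each array.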

Additional observations from a re-analysis of the deposited data

Results flagged for a closer look

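The difference of responses between macrophages and T cells, tested directly in the model, passed the threshold for Mx1 at 4.30 ± 0.42 (adjusted p = 0.003), Dck at 1.88 ± 0.24 (adjusted p = 0.0222) and Trex1 at 1.34 ± 0.17 (adjusted p = 0.022), each with the larger response in macrophages. With 2 arrays a group, extreme arrays were not tested.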

How the results depend on the processing

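Main counts of genes called were 3 for the difference, 133 for the macrophage response and 60 for the T-cell response, in both directions together. The difference gave 7 genes with no filter, 5 with array medians subtracted, 6 with a trend and robust variance model, 1 with only the 8 arrays and 0 with the 2 h vehicle arrays alone. With macrophage RNA subtracted it gave 7, and without both arrays numbered 1 of IFNα 26, both chosen after seeing the data. The 2 h vehicle arrays alone gave 57 for macrophages and 10 for T cells. The T-cell count was 39 with quantile normalization, 33 with the trend and robust model and 25 with only the 8 arrays. The causes were not tested, except that fits on fewer arrays have fewer degrees of freedom. Leaving out each array gave 1 to 511 for the difference, 69 to 357 for macrophages (lowest without IFNα array 1, highest without IFNα array 2) and 16 to 1280 for T cells (lowest without vehicle array 2, highest without IFNα array 2). A group left with 1 array was given the spread of the others.

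Deviations of macrophage and T-cell arrays with the same number correlated over all genes tested at 0.146 with vehicle, 0.156 with IFNα at 2 h and -0.137 with IFNα at 5 h. These values do not settle whether the numbers stand for pairs. In both cell types IFNα array 1 at 2 h was the higher in all 41 genes risen in both. The main fit did not pair the arrays. The number as a replicate block gave 3, 155 and 62 genes, and cell types paired by number gave 10 for the difference, with 2 of the 3 genes kept (Dck adjusted p = 0.0592). Mx1 was called in 22 of 23 alternatives, Trex1 in 17 and Dck in 16, with differences of 3.78 to 4.88, 1.15 to 1.52 and 1.41 to 2.18 and adjusted p of 3.28e-06 to 0.162, 8.38e-04 to 0.354 and 6.81e-04 to 0.354. Of 1968 values of 86 genes under the alternatives, 14 lost a call, 106 gained one, and 0 called values changed sign; 30 uncalled values did. Low intensities limit the size of the differences of Mx1, Ifi205, Mx2 and Rsad2, whose vehicle values all lay under the lower quartile of their arrays. The macrophage vehicle values of Ifit1, Ifit3, Ifi208 and Ms4a6b, among others, lay under it too, which limits the size of their macrophage responses.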
